A study of Mus musculus with 24 samples.

Results

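The genes described here are 9 mesodermal transcription factors, the basic helix-loop-helix (bHLH) factors Hand1, Hand2, Twist1, Twist2, Mesp1, Mesp2 and Msgn1 and the zinc finger factors Snai1 and Snai2. They were chosen by gene symbol, and each had 1 row among the 20633 rows of the deposited RNA-seq gene table. RNA was measured by calibrated RNA-seq (cRNA-seq), in which Drosophila SG4 cells were mixed into every sample so that levels could be scaled to cell number, in 12 libraries from 2 lines of mouse embryonic stem cells (ESCs). The table lists each gene's read count over its whole body, introns included, divided by 1 spike-in size factor per library, and this unit is called the normalised read count below. The libraries held between 14668159 and 27016156 reads on genes.

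Both lines were E14 ESCs that carried Rosa26::ERT2-Cre, a tamoxifen-inducible Cre recombinase expressed from a broadly active locus, and each was represented by 1 clone. In PRC1CKO cells (Ring1a-/-, Ring1b fl/fl, clone B9) Ring1a was deleted throughout, and 4-hydroxytamoxifen (OHT) removed the first coding exon of Ring1b, so that treated cells lacked PRC1. In PRC1CPM cells (clone 41) both Ring1a alleles carried I50A/D53K throughout, and OHT switched Ring1b from the wild-type to the I53A/D56K exon, so that PRC1 assembled without its catalytic activity. Each line was sampled untreated (UNT) and after 72 h in 800 nM OHT, with 3 replicates of each of the 4 conditions. There was no OHT-treated line without these alleles, so the effect of OHT itself cannot be told apart from that of the alleles, and the untreated cells of both lines already carried an altered Ring1a.

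Polycomb repressive complex 1 (PRC1) places ubiquitin on histone H2A and, with PRC2, holds developmental genes silent in ESCs, chiefly at promoters rich in CpG dinucleotides. bHLH factors of this kind bind the hexamer CANNTG (the E-box) as dimers, usually with a broadly expressed E protein, and Id proteins block this by sequestering the E protein. Mesp1 and Mesp2 act in the earliest cardiac and somitic mesoderm, Msgn1 in the presomitic mesoderm, Hand1 and Hand2 in the heart, limb and extraembryonic tissues, and Twist1 and Twist2 in mesenchyme and cranial neural crest. Snai1 and Snai2 are E-box-binding repressors best known for shutting off E-cadherin during epithelial-to-mesenchymal transition (EMT).

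RefSeq promoter windows (build GRCm38.p6) were found for Hand2, Twist1, Twist2, Snai1, Mesp1, Mesp2 and Msgn1, 7 of the 9 genes. All 7 are printed here, as the 250 bases before the start site, 5′ to 3′, with each CG dinucleotide in capitals, to show how they differ in CpG content.
Hand2 (chr8:57320733-57320982, plus strand): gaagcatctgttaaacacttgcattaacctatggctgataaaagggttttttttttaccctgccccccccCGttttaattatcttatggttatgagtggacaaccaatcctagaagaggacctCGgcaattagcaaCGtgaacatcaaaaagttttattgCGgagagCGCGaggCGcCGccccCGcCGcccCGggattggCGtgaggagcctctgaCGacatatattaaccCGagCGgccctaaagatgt
Twist1 (chr12:33957421-33957670, plus strand): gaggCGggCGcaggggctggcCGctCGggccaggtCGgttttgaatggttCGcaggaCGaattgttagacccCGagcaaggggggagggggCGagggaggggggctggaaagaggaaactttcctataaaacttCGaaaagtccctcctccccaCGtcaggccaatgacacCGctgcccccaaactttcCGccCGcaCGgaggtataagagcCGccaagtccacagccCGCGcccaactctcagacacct
Twist2 (chr1:91801211-91801460, plus strand): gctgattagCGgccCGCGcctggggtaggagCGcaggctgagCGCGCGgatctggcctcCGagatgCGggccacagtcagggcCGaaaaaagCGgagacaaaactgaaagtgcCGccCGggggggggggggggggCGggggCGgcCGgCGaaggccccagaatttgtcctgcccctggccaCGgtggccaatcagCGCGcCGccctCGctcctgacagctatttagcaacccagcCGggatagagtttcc
Snai1 (chr2:167537945-167538194, plus strand): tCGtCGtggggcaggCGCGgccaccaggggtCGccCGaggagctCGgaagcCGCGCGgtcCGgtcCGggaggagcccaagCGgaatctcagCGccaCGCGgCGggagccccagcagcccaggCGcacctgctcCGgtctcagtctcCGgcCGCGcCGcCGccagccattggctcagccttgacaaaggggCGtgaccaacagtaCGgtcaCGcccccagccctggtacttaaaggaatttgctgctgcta
Mesp1 (chr7:79793591-79793840, minus strand): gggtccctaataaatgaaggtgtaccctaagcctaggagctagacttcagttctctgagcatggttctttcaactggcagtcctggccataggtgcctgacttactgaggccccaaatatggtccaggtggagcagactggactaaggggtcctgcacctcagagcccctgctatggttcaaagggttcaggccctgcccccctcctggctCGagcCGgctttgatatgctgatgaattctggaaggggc
Mesp2 (chr7:79810477-79810726, plus strand): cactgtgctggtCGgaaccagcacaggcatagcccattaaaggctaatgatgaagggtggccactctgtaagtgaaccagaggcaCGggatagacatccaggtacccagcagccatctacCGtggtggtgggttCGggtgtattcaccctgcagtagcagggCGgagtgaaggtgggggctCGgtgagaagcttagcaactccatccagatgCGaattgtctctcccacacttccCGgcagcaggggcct
Msgn1 (chr12:11208949-11209198, minus strand): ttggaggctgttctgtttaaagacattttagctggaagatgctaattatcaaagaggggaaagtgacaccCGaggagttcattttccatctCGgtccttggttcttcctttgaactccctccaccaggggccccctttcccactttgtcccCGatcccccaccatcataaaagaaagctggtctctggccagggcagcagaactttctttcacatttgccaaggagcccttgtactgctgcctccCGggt

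The windows differed in CpG content. Hand2 had 15 CG dinucleotides in its 250 bases, Twist1 had 18, Twist2 had 23 and Snai1 had 27. The Mesp1 window had 2, that of Msgn1 had 4, and that of Mesp2, a gene called higher in PRC1CKO, had 8. Over the 14570 genes of the table with such a window the median was 12. Fewer CG dinucleotides than in the Snai1 window were found in 87.6% of those genes, against 57.4% for Hand2, 36.2% for Mesp2 and 9.56% for Mesp1. These are descriptions of 7 windows, and no relation of CpG content to the change in expression was tested.

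The windows were also searched on both strands for E-boxes and a TATA box. The general E-box CANNTG was present in 5 of the 7 windows, against 61.4% of all 14570. The form CAGGTG, which Snail factors and E proteins bind and which is itself one of the CANNTG sequences, was found in the Snai1 and Mesp1 windows and in 16.9% of all windows. The form CAGCTG was in none of the 7 and in 12.9% of all, and the form CATATG in none and 2.13%. The TATA box, TATAAA, was found only in the Twist1 window among the 7, and in 9.34% of all. A match shows only that these letters are present.

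Before OHT all 9 genes were low. Their 9 normalised read counts summed to 326 in untreated PRC1CKO replicate 1, 114 in replicate 2 and 141 in replicate 3, when the median single gene among those tested stood at 593, 388 and 409 in the same libraries. These counts are not corrected for gene length, and all the factors but Twist2 have bodies of at most 4.585 kb. The part of length in this gap was not tested. In untreated PRC1CPM the sums were 375, 205 and 211. After OHT they were 703, 536 and 527 in PRC1CKO and 920, 481 and 705 in PRC1CPM, so every treated library exceeded every untreated one. Several libraries stood apart from the other 2 of their condition. In untreated PRC1CKO replicate 1 the median difference from their mean was 0.54 on the log2 scale over all genes tested and 1.27 over the 7 factors tested. The same differences were 0.35 and 0.87 in untreated PRC1CPM replicate 1, 0.44 and 0.84 in treated PRC1CPM replicate 1, and -0.45 and -0.77 in treated PRC1CPM replicate 2. Calls that change without one of these or another library are given beside each result.

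**Figure D1:**
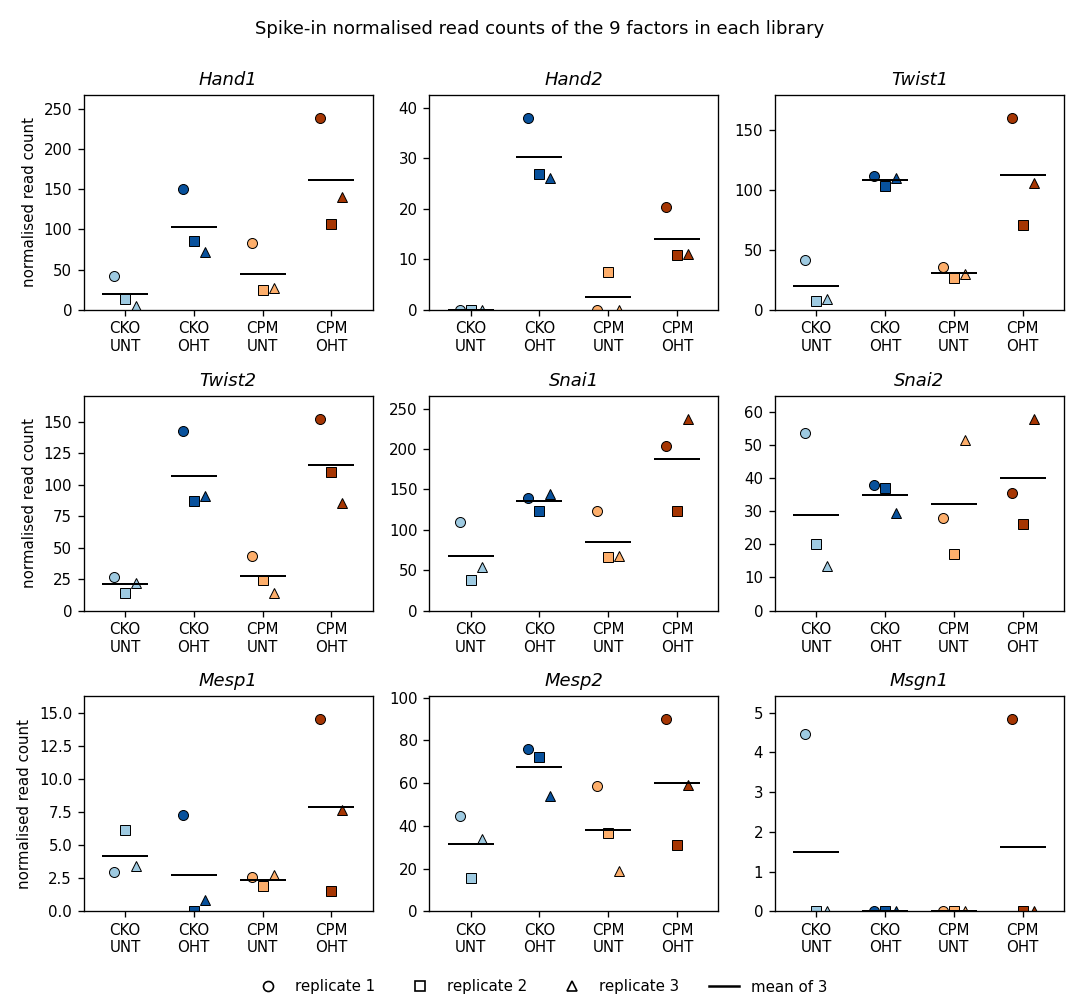
Normalised read count (vertical axes, linear, each from 0) of the 9 factors in each of the 12 libraries. Symbols mark the replicate number and horizontal lines the mean of 3. Hand1, Hand2, Twist1, Twist2 and Snai1 have every treated library above every untreated library in both lines, while Mesp1 and Msgn1 stay at or below 14.5 normalised read counts. The share of all genes that separate in this way was not counted.

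To ask which factors responded to loss of PRC1 or of its catalytic activity, OHT-treated and untreated libraries were compared within each line by limma on log2(normalised read count + 1). A gene was tested if it had at least 10 reads in at least 3 libraries, and called if its Benjamini-Hochberg adjusted p over the 16940 genes tested was under 0.05 and its fold change above 1.5. Of the 9 factors, 7 were tested, and Mesp1 and Msgn1 fell below the filter. Hand2, with at most 8 reads in an untreated library, passed the filter only through its treated libraries. Its place among the 7, and in the counts below, thus rests on its level after OHT. In PRC1CKO, 6 of the 7 rose after OHT and none fell, where 16.5% of all genes tested rose and 3.09% fell (19.5% in either direction). In PRC1CPM, 5 of the 7 rose and none fell, where 13.1% of all genes rose and 1.4% fell (14.5% in either direction). Under TMM scaling, which centres each library on its own genes in place of the spike-in, the same factors passed, and rises made up 71.5% of all calls in PRC1CKO and 80.1% in PRC1CPM, in place of 84.2% and 90.4%. Their median log2 fold change was 2.31 in PRC1CKO and 1.78 in PRC1CPM, beside medians of 0.12 and 0.10 over all genes tested. Fold changes are on the log2(value + 1) scale, which understates the change of low genes. The libraries are bulk samples, in which more cells expressing a gene and more RNA per cell cannot be told apart.

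**Figure D2:**
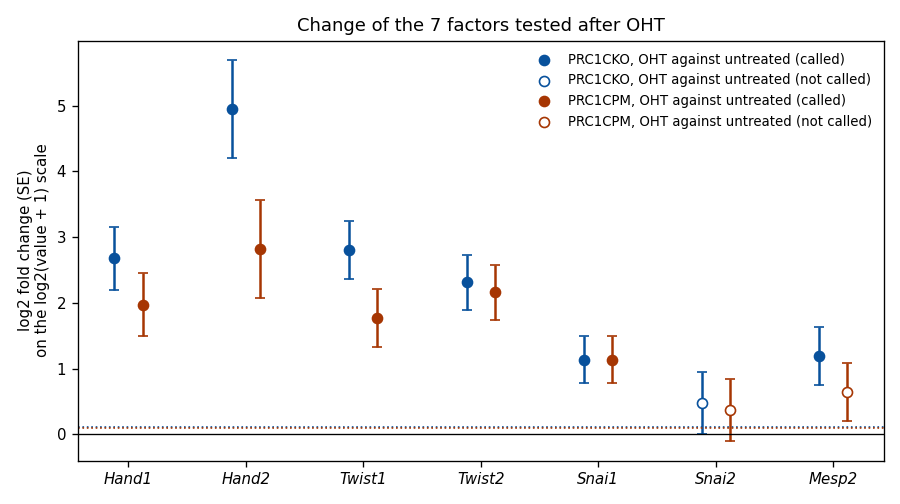
Log2 fold change of the 7 factors tested after OHT in PRC1CKO (blue) and PRC1CPM (orange), with bars of 1 standard error (SE). Filled points passed the test, open points did not, and dotted lines give the median of all genes. Hand2 has the largest change in both lines, and Snai2 is not called in either.

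Hand2, a factor of the right ventricle and limb bud, had the largest change (gene body chr8:57320983-57324517, plus strand, mm10). No read fell on it in any of the 3 untreated PRC1CKO libraries, and after OHT it had 42, 29 and 30 reads, or normalised read counts of 38.0, 26.8 and 26.2. With a floor of 3 reads over the untreated group, its level after OHT was 31.9-fold higher, a lower bound only if each read were an independent molecule. Over all genes and libraries, 79.1% of read counts between 3 and 20 were even, as happens where both reads of a pair are counted. The bound is thus too high, and it covers counting error only. The limma log2 fold change was 4.95 ± 0.75 (adjusted p = 5.73e-07). In untreated PRC1CPM it had 0, 8 and 0 reads, and after OHT normalised read counts of 20.3, 10.8 and 10.95. All 3 treated libraries lay above the untreated ones, and the log2 fold change was 2.82 ± 0.75 (SE, n = 3 against 3, limma adjusted p = 0.00498). This call was lost by limma without treated PRC1CPM replicate 1 (adjusted p = 0.0533) or without all libraries numbered 1 (log2 fold change 2.02, adjusted p = 0.185), and by DESeq2 (adjusted p = 0.0516), and without untreated PRC1CPM replicate 2, the one untreated library with reads, the fitted value was 3.85.

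The genes of the table nearest to Hand2 were both non-coding. The transcript 5033428I22Rik, 7.92 kb beyond the Hand2 end on the same strand, rose from 2.09 ± 0.865 to 78.2 ± 13.0 normalised read counts in PRC1CKO (mean ± SD, n = 3), with a log2 fold change of 4.70 ± 0.61 (limma adjusted p = 1.57e-08). In PRC1CPM it rose from 2.11 ± 1.92 to 26.2 ± 15.1, a log2 fold change of 3.27 ± 0.61 (limma adjusted p = 5.54e-05), or 2.59 without untreated PRC1CPM replicate 3. With at most 4 reads in an untreated library, 5033428I22Rik passed the filter only through its treated libraries, as Hand2 did. LOC102636514, which starts 123 bases from the Hand2 start and runs away from it on the opposite strand, was too low to be tested, with 0 reads in all 6 untreated libraries and 36 reads over the 3 treated PRC1CKO and 15 over the 3 treated PRC1CPM libraries, of which 1 had 0. The library kit kept strand, but whether the counting used it was not given in the sources used here.

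Hand1, a factor of the left ventricle, lateral mesoderm and trophoblast, rose in both lines (chr11:57828713-57832147, minus strand). In PRC1CKO its normalised read counts were 41.7, 13.1 and 5.07 before OHT and 150.0, 86.1 and 71.5 after. All 3 treated values lay above the untreated ones, and the log2 fold change was 2.68 ± 0.48 (limma adjusted p = 1.40e-05). In PRC1CPM they were 83.1, 24.5 and 27.1 before and 238, 107 and 140 after, again without overlap, with a log2 fold change of 1.97 ± 0.48 (limma adjusted p = 0.00182). The PRC1CKO value was 3.41 without untreated replicate 1 and 2.01 without untreated replicate 3, and the PRC1CPM call was lost by DESeq2 (adjusted p = 0.0714) and, by limma, without the filter on low counts (adjusted p = 0.163). Its only neighbour in the table within 100 kb, Sap30l at 18.1 kb, was not called in either line, with log2 fold changes of -0.24 and -0.14. In RefSeq the Hand1 body overlaps the long non-coding RNA Gm32915 by 40 bases, a gene with no row of its own in the table.

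Twist1, a regulator of mesenchyme and of EMT, had the tightest treated values in PRC1CKO among the factors tested (chr12:33957671-33959831, plus strand). Its normalised read counts there were 41.7, 7.70 and 9.30 before OHT and 112, 104 and 110 after, a log2 fold change of 2.81 ± 0.44 (limma adjusted p = 1.17e-06), or 3.53 without untreated replicate 1. In PRC1CPM they were 35.8, 26.4 and 29.8 before and 160, 71.1 and 106 after, a log2 fold change of 1.78 ± 0.44 (limma adjusted p = 0.00240), a call lost without the filter on low counts (limma adjusted p = 0.0940). The conditions of each line did not overlap. On one side of Twist1, the bHLH gene Ferd3l, 28.4 kb away, had 0 reads in all 12 libraries. On the other, Hdac9, a class IIa histone deacetylase gene 87.8 kb away, rose in both lines, by 2.07 ± 0.25 in PRC1CKO (limma adjusted p = 2.09e-09) and 1.37 ± 0.25 in PRC1CPM (limma adjusted p = 3.48e-05) on the log2 scale.

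Twist2, the close relative of Twist1 in dermis and bone, rose in both lines (chr1:91801477-91848027, plus strand). Its normalised read counts were 26.8, 13.9 and 22.0 before OHT and 143, 87.0 and 90.7 after in PRC1CKO, a log2 fold change of 2.31 ± 0.41 (limma adjusted p = 1.54e-05). In PRC1CPM they were 43.5, 24.5 and 13.6 before and 153, 110 and 85.4 after, a log2 fold change of 2.16 ± 0.41 (limma adjusted p = 8.35e-05). Both comparisons were without overlap. Exons make up 2.87% of the Twist2 body, and the intron holds the whole RefSeq long non-coding RNA Gm46117, which has no row of its own, so that intronic reads enter the Twist2 value. Hdac4, 84.7 kb away, was not called in either line, with log2 fold changes of 0.08 and 0.05.

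Of the Snail genes, Snai1 was called in both lines and Snai2 in neither, and the difference between them was not tested. Snai1 (chr2:167538227-167542811, plus strand) had normalised read counts of 110, 37.7 and 54.1 before OHT and 139, 123 and 144 after in PRC1CKO, a log2 fold change of 1.14 ± 0.36 (limma adjusted p = 0.0160). In PRC1CPM it had 123, 66.0 and 67.8 before and 204, 124 and 238 after, a log2 fold change of 1.14 ± 0.36 (limma adjusted p = 0.0204). The conditions did not overlap in either line, but the highest untreated and lowest treated PRC1CPM libraries, at 122.7 and 123.7, nearly met. The call rested on single libraries: in PRC1CKO the limma adjusted p was 0.146, 0.0757 or 0.0573 without untreated replicate 2, untreated replicate 3 or treated replicate 3, and in PRC1CPM it was 0.0664, 0.113, 0.0822 or 0.139 without untreated replicate 2, untreated replicate 3, treated replicate 1 or treated replicate 3. Both calls were also lost without the filter on low counts (limma adjusted p = 0.127 and 0.154). Its neighbours Rnf114 and Ube2v1 were not called, with log2 fold changes between -0.16 and 0.08 over both lines.

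Snai2, known as Slug and required in neural crest and mesenchyme, was not called in either line (chr16:14705859-14709382, plus strand). Its normalised read counts were 53.6, 20.01 and 13.5 before OHT and 38.0, 37.0 and 29.7 after in PRC1CKO, and 28.1, 16.96 and 51.5 before and 35.7, 26.3 and 58.1 after in PRC1CPM. Treated and untreated libraries overlapped in both lines. The log2 fold changes were 0.48 (95% interval -0.47 to 1.43, limma adjusted p = 0.594) and 0.37 (-0.58 to 1.32, limma adjusted p = 0.780), intervals that do not exclude a 2-fold rise.

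The Mesp genes lie 17.1 kb apart. Mesp2 (chr7:79810727-79813431, plus strand), which sets somite boundaries, had normalised read counts of 44.7, 15.4 and 33.8 before OHT and 75.9, 72.2 and 54.1 after in PRC1CKO. The conditions did not overlap, and the log2 fold change of 1.19 ± 0.44 just passed the test (limma adjusted p = 0.0495). It did not pass with any one of 5 libraries left out, namely untreated replicate 2 or 3 or treated replicate 1, 2 or 3, with limma adjusted p between 0.0553 and 0.303, nor by edgeR (adjusted p = 0.0560) or DESeq2 (adjusted p = 0.0687), nor by limma with a pseudocount of 0.1 (adjusted p = 0.0714) or without the filter (adjusted p = 0.227). In PRC1CPM Mesp2 had 58.8, 36.8 and 19.0 before and 89.8, 30.9 and 59.2 after, which overlapped, with a log2 fold change of 0.65 (95% interval -0.24 to 1.54, limma adjusted p = 0.453). The next gene on its other side, Anpep, an aminopeptidase gene 8.37 kb away, rose in both lines, by 0.74 ± 0.23 (limma adjusted p = 0.0156) and 0.77 ± 0.23 (limma adjusted p = 0.0160) on the log2 scale, calls that were lost by limma without untreated replicate 2, treated replicate 1 or treated replicate 2 in PRC1CKO (adjusted p = 0.102, 0.0589 and 0.0663) and without untreated replicate 2, treated replicate 1 or treated replicate 3 in PRC1CPM (adjusted p = 0.145, 0.144 and 0.0631).

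Mesp1, the early cardiac mesoderm factor, had 2, 8 and 4 reads before OHT and 8, 0 and 1 after in PRC1CKO (chr7:79792241-79793590, minus strand). In PRC1CPM it had 2 reads in each untreated library and 15, 2 and 7 after OHT. The conditions overlapped in both lines, and Mesp1 was below the filter and was not tested. Its neighbour Wdr93 was not called, with log2 fold changes of -0.05 and 0.08. Msgn1, whose single exon lies at chr12:11208382-11208948 on the minus strand, had 3 reads in untreated PRC1CKO replicate 1 and 5 in treated PRC1CPM replicate 1, and 0 in the other 10 libraries. Of its neighbours, 9530020I12Rik had at most 2 reads in a library, and Gen1 was not called, with log2 fold changes of -0.08 and -0.04. Of read counts between 3 and 20 over all genes and libraries, 79.1% were even numbers, as happens where both reads of a pair are counted, so that reads this few are not independent molecules.

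Per kb of gene body, Twist1 had the highest mean level after OHT in both lines, and Snai1 before. In treated PRC1CKO, Twist1 was highest at 50.2 normalised read counts per kb (mean, n = 3), followed by Hand1 at 29.9, Snai1 at 29.5, Mesp2 at 24.9, Snai2 at 9.90, Hand2 at 8.58, Twist2 at 2.30 and Mesp1 at 2.00, with Msgn1 at 0. In treated PRC1CPM the means were 52.1 for Twist1, 47.1 for Hand1, 41.1 for Snai1, 22.2 for Mesp2, 11.4 for Snai2, 5.85 for Mesp1, 3.97 for Hand2, 2.84 for Msgn1 and 2.49 for Twist2. In PRC1CKO, Hand1 and Snai1, Snai1 and Mesp2, Snai2 and Hand2, and Twist2 and Mesp1 overlapped in their libraries, while Twist1 lay above Hand1, Mesp2 above Snai2 and Hand2 above Twist2 in every library. In PRC1CPM each factor overlapped with the next in this order. In untreated PRC1CKO, Snai1 at 14.7, Mesp2 at 11.6 and Twist1 at 9.06 per kb were highest, and in untreated PRC1CPM Snai1 at 18.6, Twist1 at 14.2 and Mesp2 at 14.1, again with overlap between libraries. As the body includes introns, the long Twist2 body gives a low value per kb that cannot be read as low messenger RNA.

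The treated lines were then compared with each other, as the level of each factor with inactive PRC1 against no PRC1. None of the 7 factors was called in either direction, where 1.25% of all genes tested were higher in PRC1CPM and 0.218% lower, or 1.47% in either direction (1862 of 16940 had an unadjusted p under 0.05, and none of the 7 did), and edgeR and DESeq2 on recovered reads called none of them either. Hand2 was the one factor without overlap, its 3 treated PRC1CPM libraries lying between 10.8 and 20.3 and its 3 treated PRC1CKO libraries between 26.2 and 38.0 normalised read counts. Its log2 difference of -1.10 (95% interval -2.60 to 0.40) did not pass the test (limma adjusted p = 0.696). Its neighbour 5033428I22Rik was likewise lower in every treated PRC1CPM library, but its log2 difference of -1.66 did not pass the test either (limma adjusted p = 0.194). The share of all genes tested without overlap between the treated lines was not counted, so both separations are descriptions only. For Hand1 the log2 difference was 0.64 (95% interval -0.31 to 1.60, limma adjusted p = 0.743), and edgeR with the replicate number as a block called it higher in PRC1CPM (0.66, adjusted p = 0.0497), while limma with the block called none of the 7. For Twist1 it was -0.02 (95% interval -0.91 to 0.86), for Twist2 0.11 (-0.72 to 0.94) and for Snai1 0.42 (-0.29 to 1.14). These intervals do not exclude differences of about 2-fold, nor, for Hand1, of about 3-fold. With the block, 1131 genes were called higher and 232 lower, against 212 and 37 without it. Leaving out 1 library gave between 81 (without treated PRC1CPM replicate 1) and 399 (without untreated PRC1CKO replicate 1) higher. The genes called lower then numbered between 17 and 78.

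The difference between the lines in their response to OHT was tested by the interaction term. Without a replicate block no factor was called, where 0.0236% of all genes tested were called lower and 0% higher in PRC1CPM, and each of the 7 had a limma adjusted p of 1.00. The interaction was below 0 for 6 of the 7, with a median of -0.54 against -0.02 over all genes, and farthest from 0 for Hand2 at -2.13 (95% interval -4.25 to -0.0056). By limma its unadjusted p was 0.0494 and its adjusted p 1.00, and 497 of the 16940 genes had an unadjusted p under 0.05. This fitted value depends on the pseudocount, since Hand2 had 0 reads in untreated PRC1CKO. On recovered reads, edgeR and DESeq2 without a block called none of the 7 in this test. With the replicate number as a block, edgeR called Hand2 lower (-5.76, adjusted p = 0.0434), and no other alternative run called it. These comparisons share libraries with those within each line.

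Between the untreated lines no factor was called without pairing the libraries, where 2.21% of all genes tested were higher in PRC1CPM and 0.478% lower, or 2.69% in either direction. On recovered reads edgeR and DESeq2 called none of the 7 either, and 2391 of the 16940 genes had an unadjusted p under 0.05 by limma. Hand1 had an unadjusted limma p of 0.00657 and Twist1 of 0.0260, and both had higher mean levels in untreated PRC1CPM, by 1.35 ± 0.48 (limma adjusted p = 0.124) and 1.01 ± 0.44 (limma adjusted p = 0.258) on the log2 scale. Fits with the replicate number as a block all called Hand1 but differed on the others. By limma, Hand1 (adjusted p = 0.000126) and Twist1 (0.00994) passed, by edgeR Hand1 (0.00218) and Hand2 (0.0377) and not Twist1, and by limma with TMM scaling Hand1 alone (0.00943). With the block in limma 1631 genes were called higher and 253 lower, against 374 and 81 without it. Without untreated PRC1CKO replicate 1 and with no block, Hand1 and Twist1 passed, at 2.08 (limma adjusted p = 0.00276) and 1.73 (limma adjusted p = 0.00452), and without untreated PRC1CPM replicate 2 Hand1 passed, at 1.66 (limma adjusted p = 0.00974). Other libraries left out lowered them, Hand1 to 0.68 without untreated PRC1CKO replicate 3 (limma adjusted p = 0.808) and Twist1 to 0.58 without untreated PRC1CKO replicate 2 (limma adjusted p = 0.891). Leaving out 1 library gave between 170 (without untreated PRC1CKO replicate 3) and 1492 (without untreated PRC1CKO replicate 1) genes higher in PRC1CPM, and between 46 and 105 lower. Genes of chromosome 11, where Hand1 lies, were higher in PRC1CPM as a whole: the median log2 difference over its 1380 tested genes was 0.45 in untreated and 0.42 in treated cells, against 0.12 and 0.10 over all genes. On chromosome 1, where Twist2 lies, the medians were -0.10 and -0.16 over 990 genes. The part of these chromosome-wide differences in the Hand1 and Twist2 values was not tested.

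Counts over whole gene bodies gave no check of the alleles, as they do not separate the removed or exchanged exons from the rest of the gene. Rnf2, which encodes RING1B, had 1526 ± 201 normalised read counts in untreated and 1546 ± 51 in treated PRC1CKO, and 1696 ± 140 and 1511 ± 214 in PRC1CPM (mean ± SD, n = 3). Ring1, which encodes RING1A, had 227 ± 76 and 254 ± 26 in PRC1CKO, where its first 3 exons are deleted, and 162 ± 32 and 140 ± 26 in PRC1CPM, where it is not deleted. The Ring1 level was thus not lower in the line that carries the deletion, and these counts do not show the deletion. All 3 treated PRC1CPM libraries lay below the 3 treated PRC1CKO libraries, although the log2 difference of -0.86 did not pass the test (limma adjusted p = 0.156).

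Around these factors stand their dimer partners, their relatives and the programmes they act in, taken as lists by textbook role, whose counts stand beside the 16.5% of all genes tested that rose and 3.09% that fell in PRC1CKO, and 13.1% and 1.4% in PRC1CPM. Some listed genes, among them Tal1, Lhx1, Foxc2 and Prrx1, passed the filter only through treated libraries, as Hand2 did. Their places in the counts of their lists thus rest on their levels after OHT. Of the 7 dimer partners and inhibitors, all tested, 1 rose in PRC1CKO and 2 in PRC1CPM, and none fell. These counts are too small to set apart from those shares. With the replicate block 3 rose in PRC1CKO and 4 in PRC1CPM. The E protein gene Tcf12 rose from 2582 ± 734 to 4545 ± 233 normalised read counts in PRC1CKO (log2 fold change 0.86 ± 0.22, limma adjusted p = 0.00312) and by 0.68 ± 0.22 on the log2 scale in PRC1CPM (limma adjusted p = 0.0298). The list's median log2 fold change was 0.24 in PRC1CKO and 0.66 in PRC1CPM. Of 15 other mesodermal bHLH factors, 8 were tested and 1 rose in each line, near the share of all genes. That gene was Tal1, the blood and endothelial regulator, at 8.28 ± 3.16 before and 91.8 ± 6.27 after OHT in PRC1CKO (log2 fold change 3.37 ± 0.46, limma adjusted p = 4.52e-08) and with a log2 fold change of 2.01 ± 0.46 in PRC1CPM (limma adjusted p = 0.000835). The list's medians were 0.19 and 0.12, and with the replicate block 2 of its genes rose and 1 fell in PRC1CKO. The Tcf12 call was lost by limma without untreated replicate 3 in PRC1CKO (adjusted p = 0.101), and in PRC1CPM without untreated replicate 3, treated replicate 1 or treated replicate 2 (adjusted p = 0.392, 0.138 and 0.0685) or by DESeq2 (adjusted p = 0.0721).

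Of the genes of the primitive streak and presomitic mesoderm, 23 of 25 were tested. In PRC1CKO 12 rose and 2 fell, and in PRC1CPM 13 rose (8 without untreated replicate 3) and 1 fell (2 with the replicate block), with median log2 fold changes of 1.67 and 1.46, beside 0.12 and 0.10 over all genes. Of all genes tested, 16.5% rose and 3.09% fell in PRC1CKO, and 13.1% rose and 1.4% fell in PRC1CPM. Lhx1, an organiser homeobox gene, rose from 4.97 ± 8.60 to 37.1 ± 6.15 in PRC1CKO (log2 fold change 3.91 ± 0.66, limma adjusted p = 5.21e-06), and Foxc2, a paraxial mesoderm forkhead gene, from 3.63 ± 2.22 to 46.8 ± 7.99 (3.48 ± 0.52, limma adjusted p = 4.66e-07). Both rose in PRC1CPM too, by 2.11 and 2.14 on the log2 scale, but Lhx1 did not pass there by DESeq2 (adjusted p = 0.239), nor by limma with TMM scaling (0.0629) or a pseudocount of 0.1 (0.231). In PRC1CKO Lhx1 was at 5.24 without untreated replicate 1 and 3.24 without untreated replicate 2 or 3. Dll1, a Notch ligand that Msgn1 and Tbx6 activate in the embryo, fell from 828 ± 246 to 357 ± 39 in PRC1CKO (log2 fold change -1.17 ± 0.28, limma adjusted p = 0.00133) and from 1288 ± 624 to 444 ± 111 in PRC1CPM (-1.43 ± 0.28, limma adjusted p = 0.000138). Ripply1, a repressor that acts beside Mesp2 in the forming somite, fell in PRC1CKO (-1.41 ± 0.43, limma adjusted p = 0.0131), and in PRC1CPM its log2 fold change of -1.20 missed the threshold (limma adjusted p = 0.0501, or 0.00550 with the replicate block). The Ripply1 call in PRC1CKO was lost by limma without untreated or treated replicate 3 (adjusted p = 0.0655 and 0.0579) and that in PRC1CPM gained without untreated PRC1CKO replicate 1 (0.0314), and the Lhx1 call in PRC1CPM was lost without untreated replicate 3 or treated replicate 1 (0.0942 and 0.131).

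**Figure D3:**
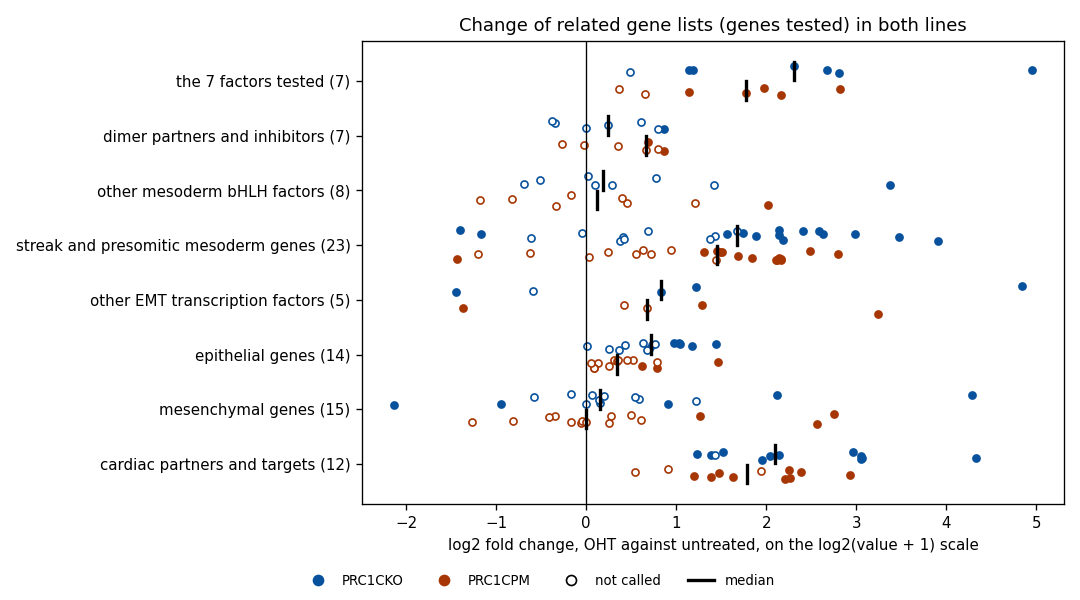
Log2 fold change after OHT (horizontal axis) of every tested gene of 7 related lists and of the 7 factors, in PRC1CKO (blue) and PRC1CPM (orange), with filled points for genes called and vertical bars for medians. The streak and cardiac lists have medians between 1.46 and 2.09, and those of the dimer partners, other bHLH factors and mesenchymal genes lie between -0.00025 and 0.66.

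Of the cardiac genes that work with or downstream of Hand1 and Hand2, 12 of 14 were tested. In PRC1CKO 11 rose and in PRC1CPM 9, where 16.5% and 13.1% of all genes did, and none fell, with medians of 2.09 and 1.78. Tbx20, a T-box gene of the heart tube, rose from 24.1 ± 14.0 to 461 ± 29 in PRC1CKO (log2 fold change 4.33 ± 0.34, limma adjusted p = 1.11e-14) and from 42.8 ± 13.0 to 327 ± 59 in PRC1CPM (2.93 ± 0.34, limma adjusted p = 3.54e-09). Mef2c, a myocardial MADS-box gene, rose from 8.06 ± 8.62 to 54.4 ± 8.27 in PRC1CKO (3.06 ± 0.54, limma adjusted p = 1.06e-05) and by 2.26 on the log2 scale in PRC1CPM. The Mef2c value in PRC1CKO was 3.82 without untreated replicate 1 and 2.42 without untreated replicate 3.

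The listed EMT genes moved in several directions. Of the 5 other EMT transcription factors, 3 rose and 1 fell in PRC1CKO, where 16.5% of all genes tested rose and 3.09% fell. In PRC1CPM 2 rose and 1 fell, where 13.1% of all genes tested rose and 1.4% fell. Prrx1, a mesenchymal homeobox gene, rose from 3.63 ± 2.22 to 122 ± 17 in PRC1CKO (log2 fold change 4.84 ± 0.51, limma adjusted p = 5.49e-11) and from 7.05 ± 5.18 to 66.7 ± 19.4 in PRC1CPM (3.24 ± 0.51, limma adjusted p = 2.47e-06). Snai3, the third Snail gene, rose by 1.22 ± 0.36 (limma adjusted p = 0.00929) and 1.28 ± 0.36 (limma adjusted p = 0.00821) on the log2 scale. Zeb1, a repressor of E-cadherin, fell from 2170 ± 263 to 799 ± 158 in PRC1CKO (-1.45 ± 0.22, limma adjusted p = 6.75e-07) and from 1909 ± 135 to 745 ± 113 in PRC1CPM (-1.37 ± 0.22, limma adjusted p = 4.95e-06). The list's medians were 0.83 and 0.68, and with the replicate block 2 of its genes fell in PRC1CKO. The Snai3 call was lost by limma without untreated replicate 2 in PRC1CKO (adjusted p = 0.0700), and in PRC1CPM without untreated replicate 2, treated replicate 1 or treated replicate 3 (adjusted p = 0.1002, 0.0514 and 0.0568), and in both lines by DESeq2 (adjusted p = 0.170 and 0.186).

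Of the epithelial genes, 14 of 16 were tested. In PRC1CKO 7 rose and in PRC1CPM 3, and none fell, where 16.5% and 13.1% of all genes rose and 3.09% and 1.4% fell, with medians of 0.72 and 0.35. The rises in PRC1CKO numbered 12 without untreated replicate 1 and 3 without untreated replicate 2, untreated replicate 3 or treated replicate 1, and those in PRC1CPM 0 without untreated replicate 3 and 1 without treated replicate 1 or 3. Cdh1, which encodes E-cadherin, the classical Snail target and chosen after its values were seen, had log2 fold changes of 0.43 (limma adjusted p = 0.144) and 0.31 (limma adjusted p = 0.423). Ovol1, an epithelial zinc finger repressor, rose by 1.44 ± 0.40 (limma adjusted p = 0.00553) and 1.46 ± 0.40 (limma adjusted p = 0.00683), and the splicing regulator Esrp1 by 1.17 ± 0.22 (limma adjusted p = 2.92e-05) and 0.62 ± 0.22 (limma adjusted p = 0.0441), on the log2 scale. Of 15 mesenchymal genes, all tested, 3 rose (5 with the replicate block) and 2 fell in PRC1CKO. In PRC1CPM 3 rose and none fell (1 with the replicate block), and the medians were 0.16 and -0.00025. Without untreated replicate 1 of the same line 6 rose and none fell in PRC1CKO, and 5 rose in PRC1CPM. Cdh11, a mesenchymal cadherin, rose from 24.8 ± 26.3 to 362 ± 72 in PRC1CKO (4.28 ± 0.41, limma adjusted p = 4.11e-12, or 5.09 without untreated replicate 1) and from 40.3 ± 14.0 to 272 ± 56 in PRC1CPM (2.76 ± 0.41, limma adjusted p = 8.26e-07). N-cadherin (Cdh2) rose by 2.12 and 1.27 on the log2 scale. Vim, which encodes vimentin, fell in PRC1CKO from 1873 ± 1065 to 889 ± 170 (-0.95 ± 0.30, limma adjusted p = 0.0172), as did Postn, which encodes periostin, from 18.3 ± 17.7 to 3.64 ± 3.62 (-2.13 ± 0.69, limma adjusted p = 0.0193). Neither was called in PRC1CPM. Without untreated PRC1CKO replicate 1 neither passed by limma in PRC1CKO, Vim at -0.51 (adjusted p = 0.227; by DESeq2 with all libraries 0.185) and Postn at -1.42 (adjusted p = 0.172), nor did Postn without treated replicate 3 (-1.25, adjusted p = 0.262), and without treated replicate 1 it was at -2.77. In PRC1CPM, Ovol1 did not pass without untreated or treated replicate 3 (limma adjusted p = 0.0681 and 0.0910), nor Esrp1 with any one of 7 libraries left out, namely the 3 treated PRC1CKO libraries, untreated replicates 2 and 3 and treated replicates 1 and 3 of PRC1CPM (limma adjusted p between 0.0572 and 0.196).

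Markers of ESCs, fibroblasts, primitive endoderm and trophoblast were read beside the factors. Of all genes tested, 16.5% rose and 3.09% fell in PRC1CKO, and 13.1% rose and 1.4% fell in PRC1CPM. The 6 ESC markers in the table summed to between 48664 and 76694 normalised read counts in untreated and between 41780 and 49334 in treated PRC1CKO, and between 44224 and 64638 and between 32354 and 57086 in PRC1CPM. Esrrb, Tdgf1 or Zfp42 was the most abundant in each library and none was at 0. Sox2 fell in PRC1CKO (log2 fold change -0.89 ± 0.20, limma adjusted p = 0.000510) and the other 5 were not called, and none was called in PRC1CPM. Of the 8 fibroblast markers, 6 were tested. Of these Thy1 rose and Postn fell in PRC1CKO (2 fell with the replicate block). None was called in PRC1CPM (1 rose and 1 fell with the replicate block). The 8 markers summed to between 2285 and 6386 in untreated and between 3727 and 4639 in treated PRC1CKO. In PRC1CPM the sums were higher, between 4024 and 15438 in untreated and between 5031 and 16063 in treated libraries. Col1a1 was the most abundant in every library, at 1120 to 12136 normalised read counts. Of the lowest genes, Dcn and Lum, at least 1 was at 0 in 10 of the 12 libraries. The Thy1 call was lost by limma with any one of 7 libraries left out, the 3 treated PRC1CKO libraries, untreated PRC1CKO replicates 2 and 3, and untreated and treated PRC1CPM replicate 3 (adjusted p between 0.0545 and 0.164).

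**Figure D4:**
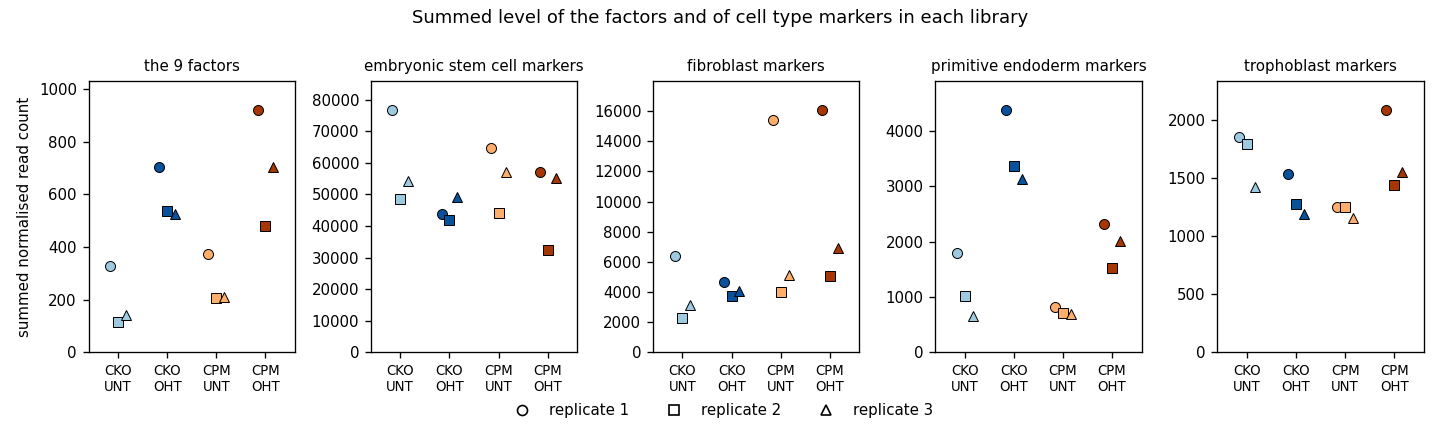
Summed normalised read count (vertical axes, linear, each from 0) of the 9 factors and of 4 marker lists in each of the 12 libraries, with symbols for the replicate number. The factors and the primitive endoderm markers have every treated library above every untreated library of the same line, and the fibroblast markers have replicate 1 of PRC1CPM highest both before and after OHT.

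Within each line the summed level of the primitive endoderm markers rose after OHT, as did that of the factors. Between the lines the markers and the factors differed. The median log2 difference of PRC1CPM from PRC1CKO was -0.78 untreated and -0.74 treated for the markers. For the 7 factors tested it was 0.42 and 0.11. Of the 7 markers, all tested, 5 rose in PRC1CKO and 7 in PRC1CPM, where 16.5% and 13.1% of all genes did. None was at 0 in any library. Their sum lay between 650 and 1801 in untreated and between 3127 and 4380 in treated PRC1CKO, and between 695 and 818 and between 1531 and 2312 in PRC1CPM. Gata6 rose by 2.96 ± 0.32 (limma adjusted p = 1.20e-10) and 2.26 ± 0.32 (limma adjusted p = 2.91e-07) and Foxa2 by 2.80 ± 0.58 (limma adjusted p = 0.000192) and 2.87 ± 0.58 (limma adjusted p = 0.000208) on the log2 scale. Gata4 and Gata6 are on the cardiac list and Pdgfra on the streak list as well. Of the 6 trophoblast markers in the table, where Hand1 is also expressed in the embryo, 5 were tested. In PRC1CKO Gcm1 and Krt7 rose and Tfap2c fell, and in PRC1CPM Cdx2 rose (with the replicate block Krt7 as well, adjusted p = 0.000101 by limma). The PRC1CKO calls were lost by limma for Gcm1 without untreated replicate 2 or 3 or treated replicate 1 or 3 (adjusted p between 0.0711 and 0.155), for Krt7 without untreated replicate 2 or 3 or treated replicate 1 (0.0992 to 0.296), and for Tfap2c without untreated replicate 2 or any one treated replicate (0.0713 to 0.143). In PRC1CPM Krt7 passed without untreated PRC1CKO replicate 1 or 2, untreated PRC1CPM replicate 1 or treated PRC1CPM replicate 3 (0.0115 to 0.0382). Tfap2c was the most abundant, and the sum lay between 1420 and 1856 in untreated and 1187 and 1539 in treated PRC1CKO, which overlapped. In PRC1CPM it lay between 1155 and 1256 in untreated and 1445 and 2086 in treated libraries, without overlap, and Tfap2c made up most of the sum in every library and was not called there. The part of these cell types in the change of the 9 factors was not tested.

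Likeness among the factors was measured as the root mean square (RMS) difference of log2(normalised read count + 1) over the 12 libraries, after centring each gene on its mean. Among the 7 tested, Snai1 and Mesp2 were closest at 0.44, followed by Hand1 and Twist1 at 0.55 and Twist1 and Twist2 at 0.60, and Hand2 and Snai2 were farthest apart at 2.13. Against all 15791 other genes compared, the closest to Hand1 were Cited1 at 0.35 and Cd44 at 0.37, to Hand2 Vax1 at 0.52 and Clec14a at 0.55, to Twist1 Wnt11 at 0.27 and Zfp36l3 at 0.28, and to Twist2 Gabrb1 and Samd5, both at 0.28. For Snai1 they were Tmem59l at 0.15 and Metrnl at 0.18, for Snai2 4930556G01Rik at 0.29 and Lamtor4 at 0.32, and for Mesp2 Efemp2 at 0.32 and Zbtb42 at 0.33. The points share libraries and depth, so these are descriptions.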

How the data were processed

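Members were matched by symbol, and the members and lists were chosen with earlier results of these data known. Reads were aligned by the authors with STAR and Bowtie2 to mm10 and dm6, deduplicated and counted over gene bodies. The deposited normalised read counts, a signal per gene, are those counts divided by spike-in size factors corrected with matched gDNA-seq. The deposited table also holds the authors' own log2 fold changes and adjusted p-values, and a second file the genes they chose from them, none of which was used. Every value (100%) was a whole multiple of 1 step per library within 0.02, which gave back the reads. A limma fit (3.58.1) of log2(value + 1), with a mean-variance trend, covered all 12 libraries. The study calls its replicates biological, and whether they came from separate cultures is not given in the labels, so p-values measure the spread between these samples. Same-numbered libraries deviated together (all 3 correlations over 0.1) between the untreated lines (0.186 to 0.377), between the treated lines (0.140 to 0.225) and within PRC1CPM (0.246 to 0.438), a pairing seen in the data and not stated in the labels, and not all within PRC1CKO (lowest 0.0988). Genes named are the 9 members, Ring1 and Rnf2, the nearest genes within 100 kb, the 2 largest called changes in each direction per list in PRC1CKO, markers, and the 2 genes most similar to each member, with Cdh1 added after its values were seen. On simulated data the fit was tested for recovery of known changes. Alternatives were edgeR (4.0.16) and DESeq2 (1.42.0) on recovered reads, TMM scaling, a pseudocount of 0.1, no filter, a replicate block, each line alone, a fold above 2 and libraries left out. TMM with the block, leaving out all libraries numbered 1, and all alternatives for listed genes were chosen after seeing the data. The 12 gDNA libraries were not analysed here.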

Additional observations from a re-analysis of the deposited data

Results flagged for a closer look

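Tfap2c, a transcription factor gene of trophoblast, was below every untreated library in all 3 treated PRC1CKO libraries and above every untreated library in all 3 treated PRC1CPM libraries. Its log2 fold change was -0.66 ± 0.22 in PRC1CKO and 0.36 ± 0.22 in PRC1CPM, and the interaction of 1.01 ± 0.31 had a limma adjusted p of 0.653 over all genes tested.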

How the results depend on the processing

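The 6 calls in PRC1CKO stayed at 4 to 6 under every alternative run, losing Mesp2 or Snai1. The 5 calls in PRC1CPM became 3 under DESeq2 (Twist1, Twist2, Snai1) and 2 without the filter on low counts (Hand2, Twist2), and 3 to 5 with 1 library left out (3 without treated PRC1CPM replicate 1). In PRC1CKO and in the interaction the numbers did not meet the rule for pairs, although each library matched its own number best in 36 of 36 comparisons, a hint from the data and not from the design. With the replicate block, factors higher in untreated PRC1CPM went from 0 to 2 by limma (Hand1, Twist1), 2 by edgeR (Hand1, Hand2) and 1 with TMM (Hand1). By edgeR with the block, 1 factor (Hand1) was higher in treated PRC1CPM and 1 (Hand2) passed the interaction test. The blocks changed no call of a factor within either line. Leaving out all libraries numbered 1 gave 2 in the untreated comparison and lost Hand2 in PRC1CPM, and leaving out single libraries gave 0 to 2 in the untreated comparison.

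These values changed sign or reached 0. Between treated lines Twist1 was 0.049 by edgeR and 0.0498 by DESeq2. In the interaction, Snai2 was 0.0097 by DESeq2, Snai1 -0.0018 at a pseudocount of 0.1, and without libraries numbered 1 Twist2 was 0.063 and Snai1 -0.19. With 1 library left out, Snai2 ranged from -0.0053 to 0.77 in PRC1CPM. Between treated lines the ranges were -0.32 to 0.26 for Twist1, -0.10 to 0.34 for Twist2, -0.17 to 0.38 for Snai2 and -0.63 to 0.13 for Mesp2. Between untreated lines they were 0 to 1.55 for Hand2, -0.14 to 0.67 for Twist2, -0.17 to 0.79 for Snai2 and -0.16 to 0.68 for Mesp2. In the interaction they were -0.56 to 0.25 for Twist2, -0.42 to 0.34 for Snai1 and -0.66 to 0.29 for Snai2. Vim ranged from -0.75 to 0.12 in PRC1CPM. The cause of these changes was not tested.

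TMM scaling moved the median of all genes in PRC1CKO from 0.12 to -0.0019 and that of the factors from 2.31 to 2.20. Over all genes tested, falls went from 524 to 1133 with TMM, 823 with the block and 346 without the filter in PRC1CKO, and from 237 to 595, 461 and 144 in PRC1CPM. Genes higher in PRC1CPM went from 212 to 524, 1131 and 58 after OHT and from 374 to 745, 1631 and 103 before, and lower ones from 37 to 261, 232 and 15 and from 81 to 305, 253 and 29. The interaction had 4 genes lower, 14 with TMM, 15 by DESeq2 and 246 with the block, and 0 higher, 78 with the block and 91 with TMM and the block. With 1 library left out, falls ranged from 326 to 674 in PRC1CKO and from 123 to 339 in PRC1CPM, rises in PRC1CPM from 1439 (without treated replicate 1) to 2547, and interaction calls lower from 1 to 28 (without untreated PRC1CKO replicate 1). Gcm1 and Krt7 in PRC1CKO were also lost by DESeq2 and at a pseudocount of 0.1, Thy1 in PRC1CKO and Tcf12 and Esrp1 in PRC1CPM with TMM, and without the filter Tcf12, Dll1, Snai3, Vim, Postn, Gcm1, Krt7 and Anpep in PRC1CKO and Tcf12, Lhx1, Dll1, Snai3, Esrp1, Cdh2, Mef2c and Anpep in PRC1CPM.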
